A study of Mus musculus with 10 samples.

Results

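The Myog and Mybph locus is the stretch of mouse chromosome 1 that carries the gene for myogenin and, upstream of it, the gene for myosin binding protein H. It was taken as the window chr1:136070000-136220000 of the mouse build mm9, 150 kb long, with Myog given at about 136186700 to 136189100 and Mybph at about 136090000. The members are all deposited peaks that overlap this window by at least 1 bp. They number 35 of 241128 peaks in 7 lists: 15 MyoD peaks, 19 Myf5 peaks and 1 peak of acetylated histone H4 (H4Ac) in cells with MyoD. The H4Ac lists of cells with green fluorescent protein (GFP) and of cells with Myf5 held no peak in the window, and neither mock list did.

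The study mapped chromatin by immunoprecipitation and sequencing in mouse embryonic fibroblasts of the genotype MyoD-/-; Myf5-/-, so all groups lack both endogenous genes. The cells received MyoD, Myf5 or GFP from a lentivirus, went into medium with insulin and transferrin 24 h after infection and were harvested after a further 20 h. The lists are MyoD in cells with MyoD, Myf5 in cells with Myf5, H4Ac in each of the 3 populations, and a mock for either factor antibody, made from cells with GFP. Chromatin for the factor and mock samples was crosslinked for 11 min. For the H4Ac samples the labels give digestion with MNase (15 units, 18 min) and no crosslinking time. Factor and H4Ac peaks thus come from different chromatin preparations. Of the 10 samples, 3 inputs were not used here. Each group had 1 list (the MyoD and Myf5 lists each join 2 replicates by their titles), so there is no replicate error and no test between groups. The factor comes from a virus rather than from its own gene, and how many embryos or lines the cells came from is not given in the sources used here. The depth of the libraries is unknown from these files. Peak strength is the authors' maximum read coverage in a peak, and it was ranked within a list only. Intervals are exact (Clopper-Pearson) 95% binomial intervals, cover counting error only, and treat neighbouring peaks as independent, which they are not.

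Both MyoD and Myf5 belong to the basic helix-loop-helix transcription factors and bind E-boxes, short DNA motifs of the form CANNTG, as they turn cells toward skeletal muscle. Myogenin, the product of Myog, is a factor of the same family that acts after them, when myoblasts stop dividing and fuse. Myosin binding protein H is a thick filament protein of skeletal muscle. Acetylation of histone H4 is a mark of active chromatin. In RefSeq's gene table, which is of another build (GRCm38.p6) and was used for gene order only, 4 genes lie between Mybph and Myog. They are Adora1 (an adenosine receptor), the RNA genes Gm32221 and Gm24517, and, next to Myog, Myoparr, a long noncoding RNA known from the Myog promoter. Chil1 precedes Mybph, and Ppfia4 (a liprin) follows Myog. Both Myog and Mybph read toward higher coordinates.

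The promoters of Myog and Mybph are shown because peaks of both factors span the Myog start and lie just after the position given for Mybph. Each line gives, 5′ to 3′ on the plus strand, the 250 bases before the start from RefSeq's GRCm38.p6 promoter table, where both genes were matched by symbol. Capitals mark the matches to the motifs that were searched on both strands. These were the E-box CANNTG, its form CAGCTG (a subset of the former), its form CAGGTG, which reads CACCTG on the other strand, the MEF3 motif TCAGGTTT, the MEF2 consensus, and that consensus without its last base, which was added after the whole consensus gave no match.
Myog: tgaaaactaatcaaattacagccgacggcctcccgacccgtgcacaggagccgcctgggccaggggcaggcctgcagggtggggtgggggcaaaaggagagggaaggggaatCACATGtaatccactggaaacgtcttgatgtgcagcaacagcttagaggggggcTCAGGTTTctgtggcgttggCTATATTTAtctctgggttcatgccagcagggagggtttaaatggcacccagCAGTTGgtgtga
Mybph: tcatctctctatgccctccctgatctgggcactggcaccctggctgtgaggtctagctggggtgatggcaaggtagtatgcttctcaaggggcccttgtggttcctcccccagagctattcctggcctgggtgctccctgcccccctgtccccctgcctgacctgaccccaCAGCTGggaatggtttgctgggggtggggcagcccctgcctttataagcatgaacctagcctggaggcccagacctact
The Myog stretch held 2 CANNTG matches, CACATG at 138 to 133 bases before the start and CAGTTG at 12 to 7 bases before it. TCAGGTTT matched at 84 to 77 bases and the shortened MEF2 consensus at 64 to 56 bases before the Myog start. The Mybph stretch held 1 CANNTG match, which was also its CAGCTG match, at 79 to 74 bases before the start. Of all 32851 promoter stretches of this length in the table, 66.2% held a CANNTG, 31.8% at least 2, 13.0% a CAGCTG, 17.2% a CAGGTG or its complement, 1.18% a TCAGGTTT, 2.92% the MEF2 consensus and 7.07% its shortened form. A match is a description of the sequence and not a bound site, and the peaks themselves could not be read as sequence because no genome of their build was used here.

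Peaks of both factors were dense across the window. Its 15 MyoD peaks compare with a mean of 2.56 per stretch of this length over the MyoD list, a ratio of 5.86. Its 19 Myf5 peaks compare with a mean of 5.33, a ratio of 3.56. Among 17189 windows of 150 kb laid end to end along the chromosomes, 0.762% held at least 15 MyoD peaks and 4.03% held at least 19 Myf5 peaks. The MyoD peaks covered 16.5 kb (11.0%) of the window and the Myf5 peaks 26.3 kb (17.6%). Peaks were broader than usual for their lists: the median width was 1039 bp for MyoD, exceeded by 13.5% of that list, and 1131 bp for Myf5, exceeded by 18.4%. More than 50% GC was recorded for 7 of the 15 MyoD peaks (46.7%), against 16.5% of all MyoD peaks, and for 10 of the 19 Myf5 peaks (52.6%), against 14.9%. These peaks share 1 region, so their width and GC are not separate observations.

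**Figure D1:**
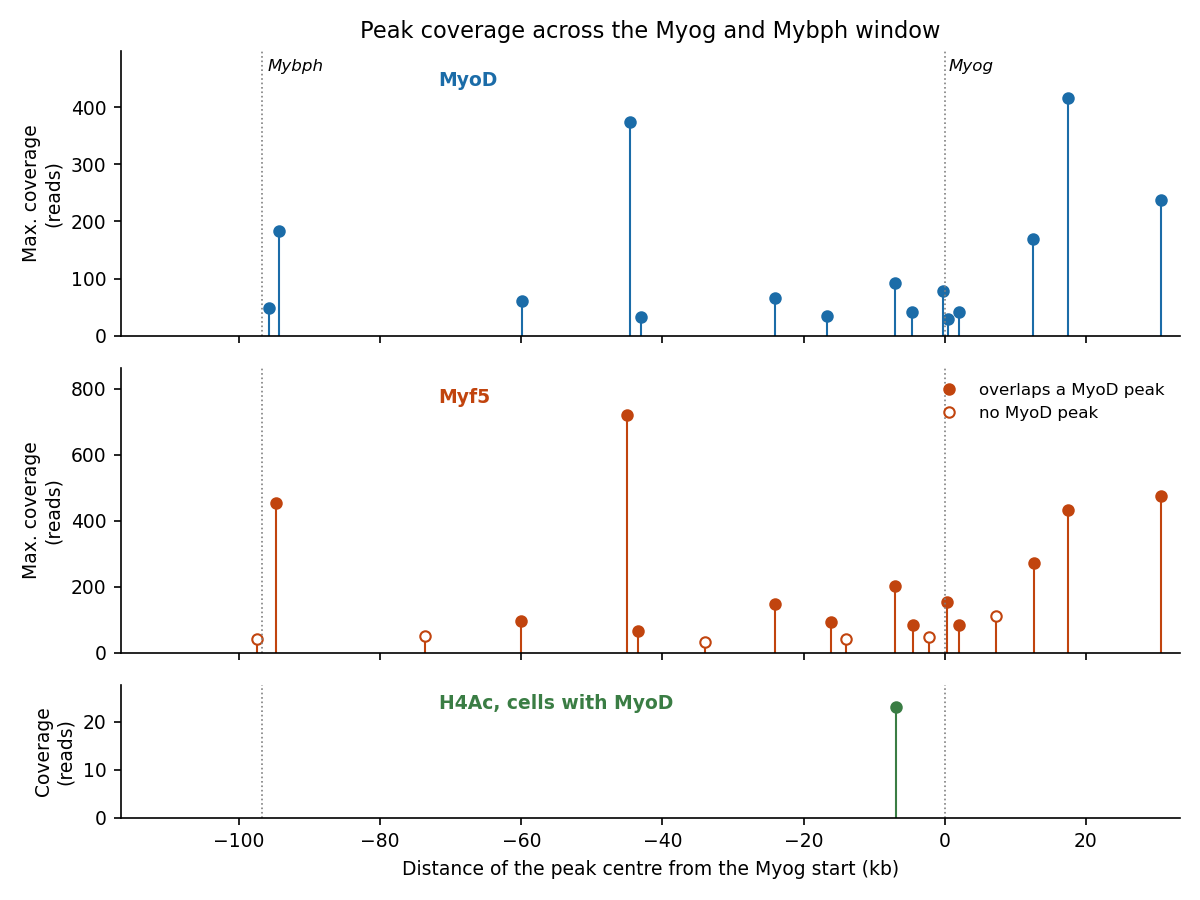
Maximum coverage in reads (vertical axis, a separate scale per list) of every peak in the window against the distance of its centre from the Myog start in kb, for MyoD, Myf5 and H4Ac in cells with MyoD. Dotted lines mark the given positions of Mybph and Myog. The highest points of both factors lie away from the Myog start, and the open Myf5 points, without a MyoD peak, run from 33 to 110.

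Every MyoD peak of the window had a Myf5 peak. The count was 15 of 15 (100%, interval 78.2 to 100%), against 97.5% of the whole MyoD list, so this is close to the background. In the other direction, 13 of 19 Myf5 peaks (68.4%, interval 43.4 to 87.4%) overlapped a MyoD peak, against 45.9% of the whole Myf5 list. The interval includes the value of the whole list. The peaks of both lists merged into 18 sites, of which 12 carried both factors, 6 Myf5 alone and 0 MyoD alone. The 6 Myf5 peaks without MyoD had coverages of 33, 40, 41, 48, 50 and 110, with a median of 44.5. The 13 shared ones ran from 66 to 719, with a median of 152. The ranges overlap only through the Myf5 peak of coverage 110 at chr1:136193467-136194392, which begins 6767 bp after the Myog start. Of the 22444 Myf5 peaks with at least that coverage, 97.6% overlapped a MyoD peak. Median coverages of Myf5 peaks with and without MyoD were not computed over the whole list. The lower coverage without MyoD is therefore not shown to be particular to this locus.

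Both factors had peaks at the start and inside Myog. MyoD was called at chr1:136186022-136186896, from 678 bp before to 196 bp after the Myog start, with a coverage of 79. Within the gene MyoD had a weak peak from 306 to 632 bp after the start, with a coverage of 29 against a cutoff of 28, and another from 1487 to 2507 bp after it, with a coverage of 41, which ran 107 bp past the given end of the gene. Myf5 was called as a single broad peak at chr1:136185908-136188193, from 792 bp before to 1493 bp after the start, with a coverage of 152. A further Myf5 peak from 1632 to 2323 bp after the start had a coverage of 84. The promoter stretch printed above would fall inside the first peak of each factor if the given start is the RefSeq start.

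The peaks at the Myog start lay in the upper part of their lists but outside the strongest 10%. Of the MyoD list, 72.9% of the peaks were weaker than the peak at the start, and of the Myf5 list 83.8% were weaker. The short MyoD peak inside the gene was near the bottom, with 3.32% of the list weaker. Control coverage, which the headers give for each peak, was 5, 4 and 8 reads at the 3 MyoD peaks and 16 and 13 at the 2 Myf5 peaks.

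Upstream of Myog, within 10 kb of its start, both factors had peaks at further sites. The stronger one lay at chr1:136178914-136180278 in the MyoD list, its centre 7.10 kb before the start, with coverages of 92 for MyoD (78.3% of the list weaker) and 203 for Myf5 (89.1% weaker). A site nearer to the gene, centred 4.60 kb before the start, read 41 for MyoD and 84 for Myf5. Myf5 alone was called 2.25 kb before the start with a coverage of 48. Altogether 5 MyoD and 6 Myf5 peaks lay within 10 kb of the start.

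**Figure D2:**
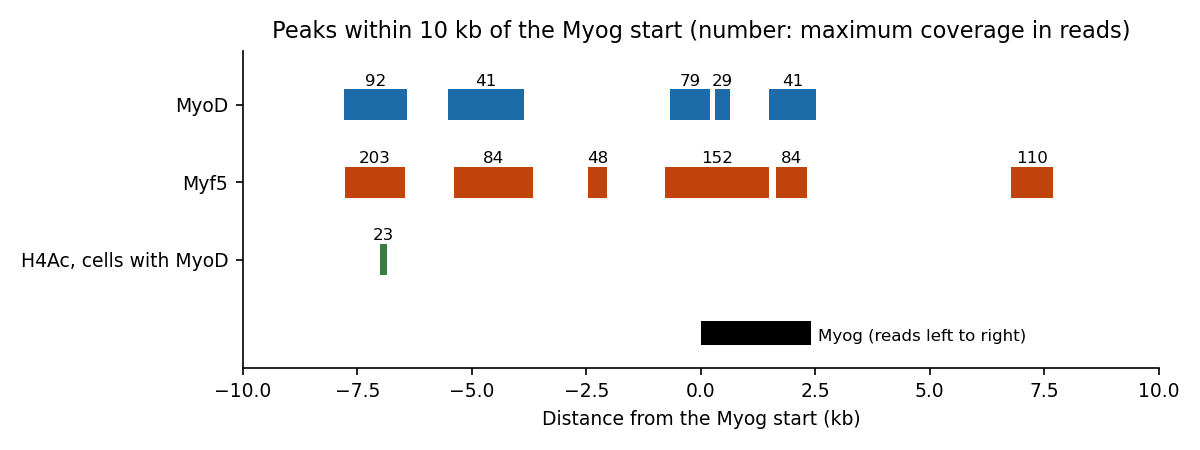
Extent of each peak within 10 kb of the Myog start (horizontal axis, kb), with rows for MyoD, Myf5 and H4Ac in cells with MyoD, the maximum coverage in reads above each bar, and the gene as a black bar. The single H4Ac peak, of coverage 23, lies inside the site with coverages of 92 (MyoD) and 203 (Myf5), and none lies over the gene.

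At Mybph, each factor had a strong peak just after the given position. MyoD had 2 peaks next to each other, at chr1:136090797-136091234 with a coverage of 48 and at chr1:136091237-136093448 with a coverage of 184. They began 797 and 1237 bp after the position given for Mybph. Myf5 covered this stretch with 1 peak of 3538 bp, at chr1:136090159-136093696, with a coverage of 452. Of their lists, 93.3% (MyoD, the stronger peak) and 97.3% (Myf5) were weaker. The other MyoD peak was just below the median coverage of its list (49), with 47.7% of the list weaker. The stronger MyoD peak and the Myf5 peak are in the bin of more than 55% GC, which holds 2.39% of the MyoD list and 1.95% of the Myf5 list. Control coverage there was 7 for MyoD and 17 for Myf5, against highest values of 20 and 31 anywhere in those lists. A separate Myf5 peak of coverage 40 ended 105 bp before the position given for Mybph, with no MyoD peak.

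The strongest peaks of the window included Mybph and not the Myog start. Of the 15 MyoD peaks, 5 were in the strongest 10% of their list, where 9.89% of all MyoD peaks fall. Of the 19 Myf5 peaks, 5 were in the strongest 10% of theirs, where 9.98% fall. The same 5 sites held the 5 strongest peaks of both factors in the window. The first by MyoD was chr1:136203570-136204698, at a site centred 17.5 kb after the Myog start, with a MyoD coverage of 416 (99.1% of the list weaker). It was the fourth by Myf5, with a coverage of 431 (97.1% weaker). The first by Myf5 was chr1:136140511-136142746, centred 45.1 kb before the Myog start, between the 2 genes, with a Myf5 coverage of 719 (99.1% weaker) and a MyoD coverage of 375 (98.7% weaker).

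The other sites of this group lay beyond Myog and at Mybph. A site centred 30.6 kb after the Myog start had coverages of 238 (MyoD, 96.2% weaker) and 476 (Myf5, 97.6% weaker). Another, centred 12.7 kb after the start, had 169 (92.1% weaker) and 271 (93.1% weaker). Mybph, above, was the fifth member, so 3 of the 5 lay past the end of Myog, on the side of Ppfia4. Whether they lie inside Ppfia4 was not determined, since only gene order was used. After the fifth site the next MyoD coverage was 92, against 169, and the next Myf5 coverage was 203, against 271. Ranks from lists of different length do not show that a site binds 1 factor better than the other.

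**Figure D3:**
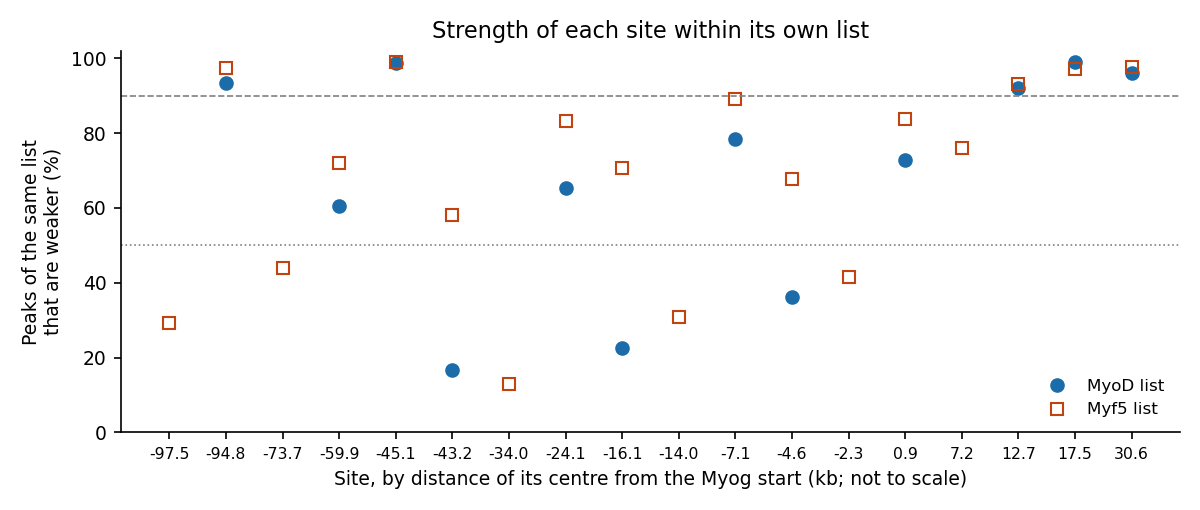
Percent of the peaks of the same list that are weaker (vertical axis) at each of the 18 sites, ordered along the chromosome and labelled by distance from the Myog start in kb. Filled circles are MyoD, open squares Myf5, and lines mark 50% and 90%. The 5 sites above 90% are the same in both lists, and the site at the Myog start reads 72.9% (MyoD) and 83.8% (Myf5).

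The remaining shared sites were weaker than the strongest group above and lay between the 2 genes. Their MyoD coverages were 60, 33, 66 and 35, at centres 59.9, 43.2, 24.1 and 16.1 kb before the Myog start. Their Myf5 coverages, in the same order, were 96, 66, 147 and 92. In all, 9 of 15 MyoD peaks lay above the median coverage of their list (49) and 14 of 19 Myf5 peaks above theirs (55), which 49.8% and 49.9% of the lists exceed. Across the 12 shared sites the highest MyoD and Myf5 coverages had a Spearman correlation of 0.951 and a Pearson correlation of 0.895. That is a description: the sites share 1 region and the same pair of libraries.

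The mock lists and the control coverage describe the background at these peaks. A mock precipitation uses the antibody in cells without its target, and the nearest mock peak to the window lay 1001 kb before it for MyoD and 578 kb before it for Myf5. Over the whole lists, 0 of 45015 MyoD and 0 of 93787 Myf5 peaks overlapped a peak of their own mock, so the absence of mock peaks at the members is a property of the lists. Control coverage at the members was 4 to 10 reads in the MyoD list, with a median of 6 against 5 over the list. In the Myf5 list it was 4 to 18 reads, with a median of 15 against 11. The part of a raised control in the Myf5 coverages was not tested.

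H4Ac was called at 1 site of the window, and in cells with MyoD only. The peak lay at chr1:136179693-136179836, 144 bp wide, and ended 6864 bp before the Myog start, inside the site that carried MyoD (92) and Myf5 (203). Its coverage was 23 against a cutoff of 22, with a control coverage of 6 and an authors' p-value of 4.35e-06. Of the H4Ac list of cells with MyoD, 14.8% had a lower coverage, 12.5% were as close to their cutoff or closer, and 13.0% were as narrow or narrower. This is a borderline call, and with peaks held to 1.5 times the cutoff the window held 0 H4Ac peaks in all 3 populations. Of the 6388 H4Ac peaks called in cells with MyoD and not with GFP or Myf5, 40.1% overlapped peaks of both factors, as this peak does. That no peak was called at the same place with GFP or Myf5 does not show a difference, since no test between populations is possible.

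Neither the Myog start nor Mybph had an H4Ac peak in any population. In cells with MyoD, 1 of the 15 MyoD peaks (6.67%, interval 0.169 to 31.9%) had an H4Ac peak, against 18.6% of the whole list. In cells with GFP and in cells with Myf5 the count was 0 of 15 (interval 0 to 21.8%), against 14.4% and 15.1% of the list. With MyoD, 1 of the 19 Myf5 peaks (5.26%, interval 0.133 to 26.0%) had an H4Ac peak. In cells with GFP or with Myf5, 0 of 19 did (interval 0 to 17.6%). The whole Myf5 list gave 13.6%, 11.6% and 11.9%. All intervals include the value of the whole list, so the shares of the locus could not be told from it with this number of peaks.

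None of the 5 strongest sites of the window had a called H4Ac peak. A missing call does not show missing acetylation, since the lists hold no signal below the cutoff. Of the MyoD list, 3548 peaks had a coverage of at least 169, that of the fifth strongest MyoD peak here, and 42.6% of them overlapped an H4Ac peak in cells with MyoD, against 0 of 5 here. Of the Myf5 list, 6461 peaks reached 271, that of the fifth strongest Myf5 peak here, and 22.6% overlapped an H4Ac peak in cells with Myf5, against 0 of 5. Taking 3 counts as the approximate limit of a count of 0, 0 of 5 allows a share of up to 60%. Neither difference was detectable with 5 sites.

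H4Ac was called on both sides of the window in all 3 populations. In cells with GFP the nearest peaks lay 71.6 kb before the window (coverage 33) and 37.9 kb after it (coverage 29). In cells with MyoD they lay 71.8 kb before (coverage 48) and 38.7 kb after (coverage 95), and in cells with Myf5 71.4 kb before (coverage 170) and 38.7 kb after (coverage 107). The stretch between them was 260.5 kb long in cells with MyoD, held the 1 borderline H4Ac peak and contained 21 MyoD and 37 Myf5 peaks. In cells with GFP it was 259.5 kb long and in cells with Myf5 260.1 kb, with 0 H4Ac peaks in each. These stretches end at H4Ac peaks by definition, and no background for their length was computed, so the counts only describe the locus.

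Few windows with as many MyoD peaks held as few called H4Ac peaks. Over all 150 kb windows, 54.1% held no H4Ac peak in cells with GFP, and over those with at least 15 MyoD peaks 8.4% did (4.51% with the windows shifted by 75 kb). Of the 131 windows with at least 15 MyoD peaks, 11 (8.40%) held at most 1 H4Ac peak in cells with MyoD, and 6 (4.58%) held at most 1 over the 3 populations, which was 3.01% with the shifted windows. The median of these windows was 6 H4Ac peaks with GFP, 7 with MyoD and 5 with Myf5, against 0, 1 and 0 here. This comparison was chosen after the values were seen, so it only describes the locus.

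**Figure D4:**
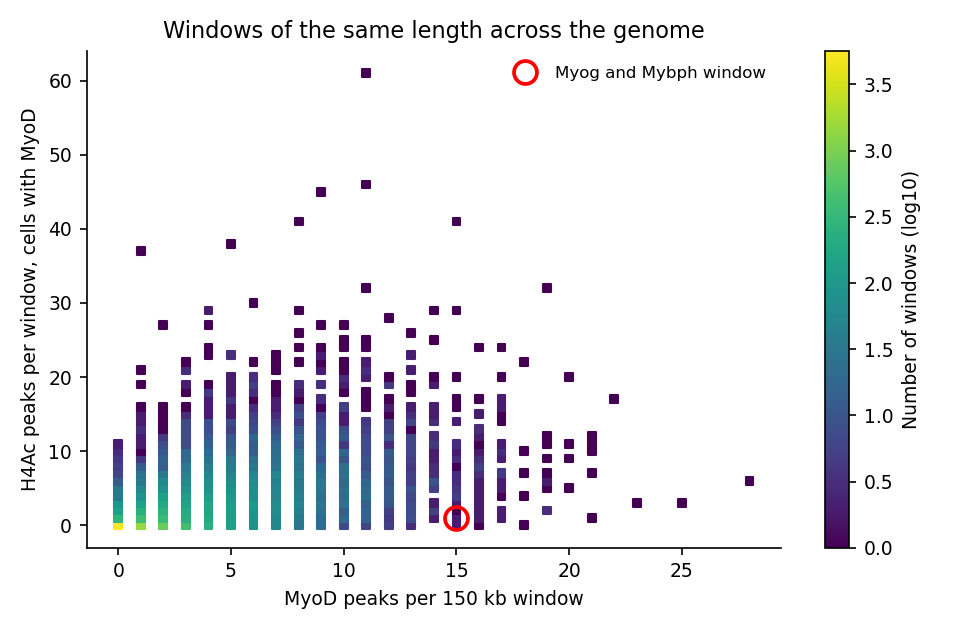
Number of H4Ac peaks in cells with MyoD (vertical axis) against the number of MyoD peaks (horizontal axis) in each of 17189 windows of 150 kb, coloured by how many windows share a position on a log10 scale. The red circle marks the Myog and Mybph window, with 15 MyoD peaks and 1 H4Ac peak, at the lower edge of the windows that hold as many MyoD peaks.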

How the data were processed

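The deposited lists were made by the authors. The submitters' processing notes name CASAVA (1.8.2), BWA (0.7.5) and, with no role, the builds hg19 and mm9. What caller made the peaks, how replicates were joined and which control was set against them is not given in the sources used here. Positions were read as mm9: the last peak of chromosome 1 ends at 197068167. Per the file headers, coverage (signal) is the authors' maximum per peak in whole numbers with no named scaling, the cutoff is set in 5 bins of GC content, and the p-value is the authors' own. Control p-values were not used, since some exceed 1, and 1 control coverage below 0 was treated as missing.

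Peaks were selected by overlap with the window, taken by at least 1 bp, merged into sites, and ranked by coverage within their list. The upper limit for 0 of 5 sites was taken as 3 counts, which is approximate at this number and is not an exact interval. Members and lists were chosen with earlier results of these data known. The 5 strongest peaks per factor, those at Myog and Mybph and every H4Ac peak are given in full. Windows of 150 kb, counted by peak centre from position 3000000, and the shortened MEF2 consensus were chosen after the values were seen. The overlap code was checked on simulated data. Alternatives were other overlap rules, stricter cutoffs, lists of equal length, a wider window and other ranks. The work ran in Python 3.11.15 (matplotlib 3.10.9, scipy 1.17.1, pandas 2.3.3, numpy 2.4.6).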

Additional observations from a re-analysis of the deposited data

How the results depend on the processing

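Of 63 alternative values for counts and shares, 53 stayed within 1.5 times the main count or within the interval of the main share, and 10 moved. Part of the 53 could not move, since a count or share of 0 stays at 0 under a stricter cutoff, overlap or list length. The tally is therefore no measure of how robust the results are. With the window widened by 50 kb on each side, the lists held 32 Myf5 peaks, 3 H4Ac peaks with GFP, 3 with MyoD and 1 with Myf5 (21 MyoD peaks, within 1.5 times). With H4Ac peaks held to 1.5 times the cutoff, the window held 0 H4Ac peaks and 0 regions in cells with MyoD, and 0% of the MyoD and 0% of the Myf5 peaks had one. The shares of the whole factor lists at this stricter cutoff were not computed, so these values have no like background. With centres within 100 bp in place of overlap, 40% of the MyoD peaks had a Myf5 peak and 31.6% of the Myf5 peaks a MyoD peak. The whole lists were not measured by this centre rule, so these shares have no background and cannot be set against the list values for overlap. Ranks by coverage over the cutoff or within a GC bin moved the percent of weaker peaks by at most 7.51 points and left 5 peaks of each factor in the strongest 10%. Windows shifted by 75 kb gave 0.773% with at least 15 MyoD peaks, against 0.762%. Of those, 4.51% had no H4Ac peak with GFP, against 8.40%, 6.02% had at most 1 with MyoD, against 8.40%, and 3.01% had at most 1 over the 3 populations, against 4.58%. No paired analysis was possible because each group has 1 list. Unknown depth limits any comparison of coverage between lists.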
